A study of Taeniopygia guttata with 46 samples.

Results

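The widest temperature contrast in the zebra finch testis set 7 birds held at 43 °C against 7 held at 27 °C, 14 of the 46 RNA-seq samples of the series. The members were chosen by their titles, which give the bird, the air temperature in °C and the tissue. All were adult male zebra finches (Taeniopygia guttata) kept for 5 h at an air temperature that the labels place above (43 °C) or below (27 °C) the thermoneutral zone. Testes of 8 further birds kept at 35 °C, within that zone, served to place genes as intermediate or not. Inside the thermoneutral zone a bird at rest need not raise its metabolism to hold its body temperature. The labels name no strain, genotype or other treatment.

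The testis makes sperm in its seminiferous tubules, where germ cells divide, pass through meiosis and are remodelled into sperm beside the Sertoli cells that nurse them, while Leydig cells between the tubules make testosterone. In mammals spermatogenesis is known to be sensitive to heat. In birds the testes lie inside the body cavity, so that spermatogenesis runs at core body temperature. In bulk tissue of this kind, fewer cells of a type and less RNA per cell cannot be told apart.

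Counts were deposited for 18618 Ensembl gene identifiers in 2 columns per bird, a paired-end and a single-end one (called runs here), which were summed. The files do not pair identifiers with gene names, and 0 of them could be matched through the RefSeq gene table used here, so genes appear by identifier, without a function, and the tissue could not be checked against marker genes. Each testis library correlated with the mean profile of the other testes at r of at least 0.989 across genes, and with the telencephalon profile at no more than 0.739. This covered bird T142 at 27 °C, whose sample carries the tissue characteristic brain although its title and source name say testis. Total counts ran from 16330324 to 22680416 per bird at 43 °C, and from 14944822 to 22029503 at 27 °C (exact two-sided permutation test of the means, n = 7 each, p = 0.461). No 2 birds of a group had counts within sampling noise of each other (chi-square per degree of freedom of at least 29.2).

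No gene passed the test between 43 and 27 °C. Of the 14149 genes with enough counts to be tested, 0 reached a Benjamini-Hochberg adjusted p under 0.05 in edgeR's quasi-likelihood test (0% called), and the smallest adjusted p was 0.728. DESeq2 and limma voom with quality weights also called 0 genes, with smallest adjusted p of 0.0981 and 0.635. At an unadjusted p under 0.05 edgeR had 873 genes (6.17% of those tested, where 5% are expected without an effect), 406 of them higher (2.87%) and 467 lower (3.3%) at 43 °C. The lean to lower genes depended on the method, with 439 in each direction under RLE scaling and 457 higher and 435 lower in limma voom. DESeq2, fitted to 17508 genes without the filter on low counts, had 543 higher and 555 lower (6.27% together). Without T142, the bird with conflicting tissue labels, edgeR again called 0 genes, and 1203 had an unadjusted p under 0.05 (8.45%). Of the higher ones in the full set the median fold was 1.33, and of the lower ones 0.688. The lower set lay at lesser abundance, with a median of 9.24 CPM (counts-per-million on TMM-adjusted library sizes), against 29.0 CPM for the higher set and 17.1 CPM for all genes tested.

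**Figure D1:**
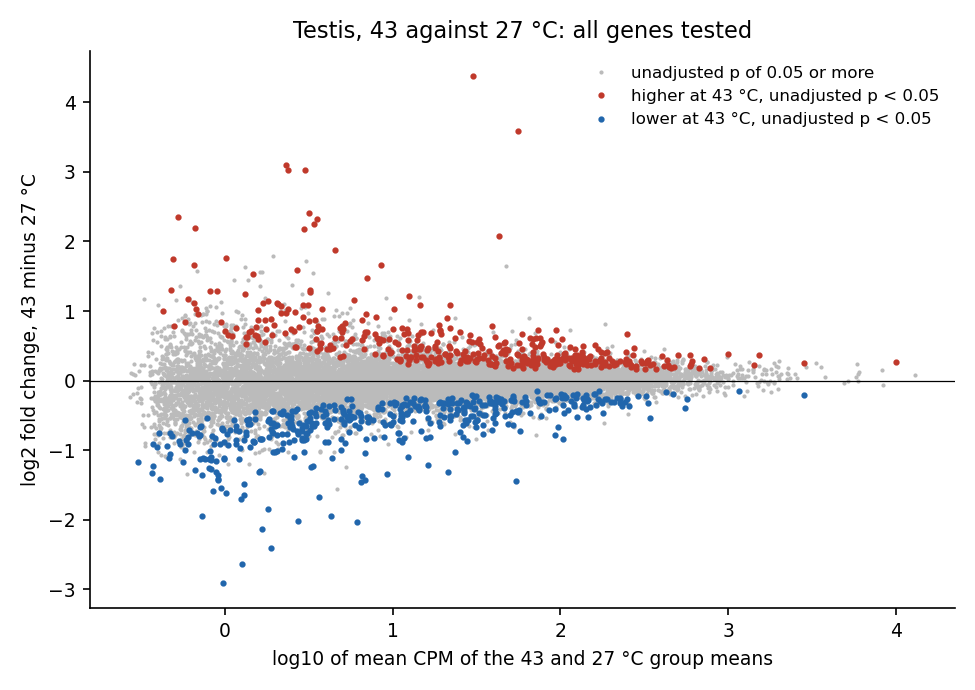
Each point is 1 of the 14149 genes tested in the testis, with the log10 of the mean of the 43 and 27 °C group means (in CPM) on the x axis and the fitted log2 fold change (43 minus 27 °C) on the y axis. Red and blue points are the 406 higher and 467 lower genes at an unadjusted p under 0.05, none of which passed the adjusted threshold, and a few red points stand above a log2 fold change of 3.

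Most genes of at least 10 CPM were measured closely enough to bound their change. Among the 8446 genes that averaged 10 CPM or more in the 14 birds, the median absolute log2 fold change was 0.10, and 95% of them lay within a fitted 1.30-fold change. The 95% confidence interval lay within a 1.5-fold change in either direction for 80.1% of these genes and within a 2-fold change for 96.6%. At that level 514 of the 8446 genes had an unadjusted p under 0.05, against 873 of all 14149 genes tested. Of the 514, 285 were higher and 229 lower at 43 °C, and 72 had a fitted change over 1.5-fold. The intervals are per gene and not adjusted for the number of genes, so they do not give the detection limit of the adjusted test. ENSTGUG00000012827 had a 95% interval of -1.49 to -0.58 for its log2 fold change, yet an edgeR adjusted p of 0.728. The adjusted p of this change was 0.0981 in DESeq2, 0.635 in limma voom and 0.351 in edgeR with the 14 birds alone. Changes of that size, and smaller ones, could thus go uncalled at this depth and with the spread between birds, whose biological coefficient of variation was 29.1%.

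Separation bird by bird was rare. All 7 birds at 43 °C lay above all 7 at 27 °C in 1 gene (0.00707% of those tested) and below all 7 in 3 genes (0.0212%), together 0.0283%. These 4 are named because their count is small, and they were chosen after their values were seen. Among so many genes tested, as many as these can separate in this way by chance, so their count is a description. A looser count, all 7 birds at 43 °C beyond the median of the 27 °C birds on the same side, held for 1238 genes, or 8.75% of those tested. It held for 414 of the 873 genes at an unadjusted p under 0.05 (47.4%), which were selected by the same difference. The share of genes to expect in this looser count without an effect was not worked out. The 5% that holds for an unadjusted p does not apply to it.

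The gene without overlap that was higher at 43 °C was ENSTGUG00000014693. Its testis level was 45.7 CPM in the lowest, 53.6 in the median and 65.2 in the highest bird at 43 °C, against 27.5, 38.5 and 44.3 CPM at 27 °C. The lowest bird at 43 °C thus stood just above the highest at 27 °C. The log2 fold change was 0.55 ± 0.15 (SE), with an edgeR adjusted p of 0.728. Its average was 55.7 ± 7.96 CPM at 43 °C, against 38.0 ± 6.41 CPM at 27 °C (SD, n = 7 each), and 35 °C lay below both with 36.2 ± 9.16 CPM (SD, n = 8). The bird at 35 °C with the highest level, T139 at 56.0 CPM, lay inside the range of the 43 °C birds, while the other 7 reached 39.0 CPM.

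ENSTGUG00000008322 was lower at 43 °C without overlap and varied little among birds. Its level ran from 42.3 CPM through a median of 47.7 to 49.7 CPM at 43 °C, and from 50.1 through 56.0 to 59.1 CPM at 27 °C. The log2 fold change was -0.27 ± 0.077 (SE; edgeR adjusted p = 0.728), and the mean at 35 °C, 50.7 ± 4.71 CPM (SD, n = 8), stood between 46.4 ± 2.64 CPM (43 °C) and 56.1 ± 3.15 CPM (27 °C; SD, n = 7 each).

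ENSTGUG00000001728 was the most abundant of the 4. It had 155.5 CPM in the lowest, 204 in the median and 219 in the highest bird at 43 °C, against 222, 252 and 292 CPM at 27 °C. The gap between the groups was narrow, and the log2 fold change of -0.32 ± 0.11 (SE) had an edgeR adjusted p of 0.736. At 35 °C the birds spread over the ranges of both groups, with 157.2 to 277 CPM.

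ENSTGUG00000009070 stood near the limit of detection. Its level was 0.502 to 1.05 CPM at 43 °C, with a median of 0.871, and 1.17 to 1.92 CPM at 27 °C, with a median of 1.46. The log2 fold change was -0.92 ± 0.22 (SE), with an edgeR adjusted p of 0.728. The gene is a telencephalon-enriched one, with 12.99 ± 2.64 CPM at 43 °C, against 11.9 ± 1.34 CPM at 27 °C, in the telencephalon (SD, n = 8 each). There its direction was the other one, with a log2 fold change of 0.11 ± 0.13 (SE) and an edgeR adjusted p of 0.7999.

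The 4 genes picked by p, the 2 smallest on each side among genes of at least 5 CPM whose sign was the same in both runs, overlapped between groups. ENSTGUG00000012827 had the smallest p of all genes. It was at 9.91 CPM in the lowest, 15.3 in the median and 21.1 in the highest bird at 43 °C, against 18.3, 33.0 and 41.1 CPM at 27 °C. In 5 of 7 birds at 43 °C the level was below that of every 27 °C bird, and bird T145 was the low one at 27 °C. The log2 fold change of -1.03 ± 0.22 (SE), a fold of 0.488, had an edgeR adjusted p of 0.728. The birds at 35 °C spread from 13.7 to 45.6 CPM, with a median of 26.8. T135 and T144 at 43 °C lay below all of them.

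ENSTGUG00000002048 was the other gene picked by p on the lower side. The limit of 5 CPM is a mean over the birds compared, and this gene passed it through its level at 27 °C. It averaged 3.67 CPM at 43 °C, under that limit, and 6.81 CPM at 27 °C. Its testis level was 2.85 to 5.50 CPM at 43 °C, with a median of 3.45, and 4.08 to 10.9 CPM at 27 °C, with a median of 6.07. Only T135 at 43 °C reached into the range of the 27 °C birds, and the log2 fold change was -0.89 ± 0.21 (SE), with an edgeR adjusted p of 0.728. The telencephalon gave a measure of this gene that its selection had not used. There it averaged 3.19 ± 1.02 CPM at 43 °C, against 5.32 ± 1.14 CPM at 27 °C (SD, n = 8 each), for which the log2 fold change was -0.74 ± 0.21 (SE). Its unadjusted p was 0.00129 and its adjusted p 0.204 in edgeR over 13254 genes. Of the 9 genes plotted that could be tested in the telencephalon, this one had the smallest p there. The log2 fold changes in the telencephalon were 0.27 ± 0.13 for ENSTGUG00000014693 (unadjusted p = 0.0471, edgeR adjusted p = 0.448) and 0.17 ± 0.082 for ENSTGUG00000012606 (unadjusted p = 0.0475, edgeR adjusted p = 0.448). They were -0.12 ± 0.16 for ENSTGUG00000012827, -0.072 ± 0.047 for ENSTGUG00000008322 and -0.083 ± 0.062 for ENSTGUG00000001728 (SE; edgeR adjusted p = 0.825, 0.595 and 0.663). Every testis had a telencephalon of the same bird beside it, so the tissues are not independent sets of animals.

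On the higher side, ENSTGUG00000006364 ran from 77.3 CPM through a median of 102 to 175 CPM at 43 °C, and from 65.3 through 80.1 to 90.5 CPM at 27 °C. In 6 of 7 birds at 43 °C it exceeded every bird at 27 °C. T135 had the highest level, and without that bird the log2 fold change of 0.52 ± 0.13 (SE, edgeR adjusted p = 0.728) was 0.38. ENSTGUG00000007934 had 72.8 to 108 CPM at 43 °C, with a median of 93.9, and 50.1 to 76.2 CPM at 27 °C, with a median of 57.6. Its log2 fold change was 0.52 ± 0.14 (SE), with an edgeR adjusted p of 0.728. Both genes were testis-enriched, both had a mean at 35 °C between the others (84.8 ± 7.11 and 74.1 ± 15.5 CPM, SD, n = 8), and in the telencephalon their log2 fold changes were 0.24 ± 0.32 and -0.17 ± 0.11 (SE; edgeR adjusted p = 0.834 and 0.630).

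**Figure D2:**
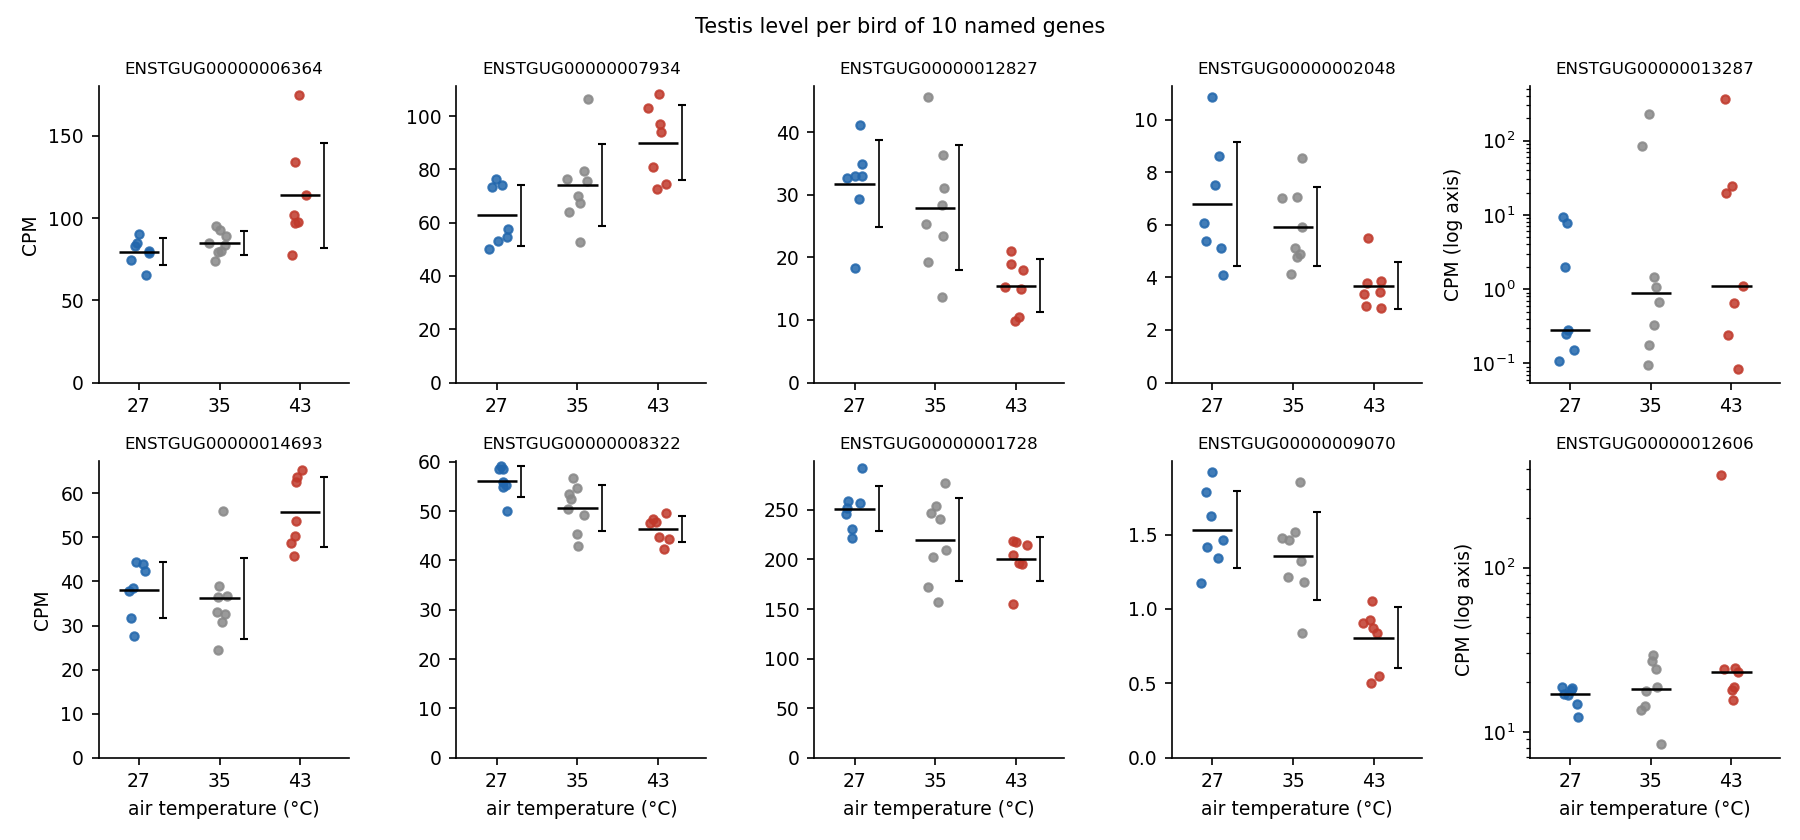
Level in CPM (y axis) of 10 genes in each testis at 27, 35 and 43 °C (x axis), with 1 point per bird. Lines are group means with SD beside them, except in the rightmost panels, which have a log axis and group medians. The lower panels except the last show the 4 genes in which the 7 birds at 43 °C did not overlap the 7 at 27 °C. The rightmost panels show ENSTGUG00000013287 (top) and ENSTGUG00000012606 (bottom), from the 4 genes in which a single bird at 43 °C held most of the summed CPM.

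The 4 largest fitted fold changes at this level were in genes where 1 bird held most of the summed CPM. Among the genes of at least 10 CPM, 14 had a fitted change over 2-fold, 9 higher and 5 lower at 43 °C, and 12 of them had an unadjusted p under 0.05. That limit is a mean over the same 14 birds, so 1 high bird can carry a gene past it. In 4 of the 14, 1 bird held over 50% of the CPM summed over the 14 birds. T152 was that bird in 3 of these genes and T144 in the fourth, both at 43 °C. The other 2 genes led by T152, also named after their values were seen, were ENSTGUG00000013286, where it held 58.8% of the summed CPM, and ENSTGUG00000008254, where it held 82.5% with 649.6 CPM. In ENSTGUG00000008254 the medians were 5.17 CPM at 43 °C and 5.39 CPM at 27 °C, while the fitted log2 fold change was 3.58. The medians of the groups differed by less than 2-fold in 7 of the 14.

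ENSTGUG00000013287, singled out after its values were seen, had the largest fitted change among them, with a log2 fold change of 4.38 ± 1.85 (SE, edgeR adjusted p = 0.793). At 43 °C its level was 0.0840 CPM in the lowest bird, 1.11 in the median and 358 in the highest, T152, and the second highest was 24.1 CPM. At 27 °C it was 0.108, 0.278 and 9.27 CPM. The levels of single birds thus stood far above the median of their own temperature. A like spread was present at 35 °C, where the lowest, median and highest birds had 0.0945, 0.876 and 228 CPM. Without T152 the log2 fold change was 1.47. The gene was testis-enriched, and in the telencephalon its mean was 0 CPM at 43 °C and 0.0118 CPM at 27 °C.

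ENSTGUG00000012606, also singled out, was at 366 CPM in T144 and at 15.7 to 24.6 CPM in the other 6 birds at 43 °C, against 12.3 to 18.8 CPM at 27 °C. Its log2 fold change was 2.08 ± 0.59 (SE, edgeR adjusted p = 0.728), and 0.32 without T144. The gene was telencephalon-enriched, with 418 ± 21.7 CPM at 43 °C, against 370.1 ± 29.8 CPM at 27 °C, in the telencephalon (SD, n = 8 each). The testis of T144 also had the highest share of counts in telencephalon-enriched genes, 4.94%, against 3.57 to 4.33% in the other birds at 43 °C and 3.53 to 4.41% at 27 °C. The part of this in the gene's level was not tested.

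Among the 14 genes, the largest fitted difference on the lower side, also chosen after the values were seen, was in a gene where the top bird held 17.9% of the summed CPM. ENSTGUG00000003521 was at 14.5 to 55.9 CPM at 43 °C, with a median of 26.9, and at 9.63 to 135.7 CPM at 27 °C, with a median of 95.4. The range at 43 °C lay wholly inside that at 27 °C. The log2 fold change was -1.45 ± 0.56 (SE; edgeR adjusted p = 0.760).

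Over all genes tested, single birds stood apart at a rate near that of chance at every temperature. Dixon's test, applied here to log2 CPM, flags about 1 in 20 groups by chance. By this test 1 bird stood apart from its group in 832 of the genes tested at 43 °C (5.88%), in 690 at 27 °C (4.88%) and in 839 at 35 °C (5.93%). T141 led at 43 °C with 161 genes, and T155 at 27 °C with 164. T152 and T144, which held the extreme levels above, stood apart in only 85 and 106 genes.

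Genes were then grouped by the tissue in which they were higher at 35 °C, a choice that used none of the 14 birds. Testis-enriched genes, at least 4-fold higher in testis than in telencephalon, numbered 2838 among those tested. Of them 132 were higher and 69 lower at 43 °C at an unadjusted p under 0.05 (7.08%, against 6.17% of all genes), and their median log2 fold change was 0.036, against -0.0081 for all genes. The 1902 telencephalon-enriched genes, which in a testis are expressed at a median of only 3.72 CPM, had 47 higher and 79 lower, or 6.62%, and a median log2 fold change of -0.032. The 8833 genes enriched in neither had 218 higher and 298 lower, or 5.84%, with a median of -0.014.

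The counts in each direction also varied with abundance. Of the 2294 genes over 100 CPM, 104 were higher and 58 lower at 43 °C at an unadjusted p under 0.05. Together that was 7.06%, against 6.17% of all genes tested. Of these 2294 genes 60.5% had a fitted change above 0, against 48.4% of all genes. Of the 1239 genes under 1 CPM, 15 were higher and 58 lower (5.89% together), and 39.0% had a fitted change above 0. In testis-enriched genes and in genes over 100 CPM, the excess of higher genes was smaller without the 27 °C bird T159 or T145. Without T159 the testis-enriched genes numbered 89 higher and 86 lower, and the genes over 100 CPM 70 higher and 68 lower. Without T145 they were 93 against 70, and 63 against 54. Without T142 the testis-enriched genes numbered 172 higher and 94 lower, and 55.6% of them had a fitted change above 0, against 56.6% with all birds. The testes of T159 and T145 had the lowest shares of counts in testis-enriched genes at 27 °C, 38.4 and 39.8%.

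**Figure D3:**
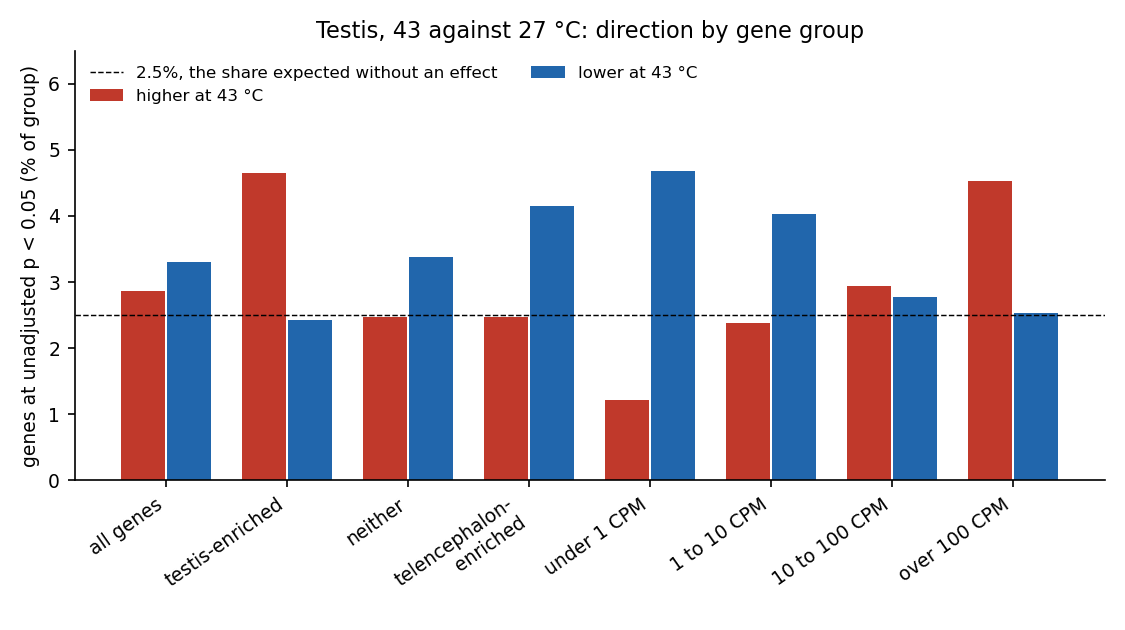
Share of genes (y axis, % of the group) at an unadjusted p under 0.05 that were higher (red) or lower (blue) at 43 °C, for all genes tested, by tissue of highest level and by mean CPM over the 14 birds. The dashed line at 2.5% is the share expected in each direction without an effect. Red exceeds blue in testis-enriched genes (132 against 69) and in genes over 100 CPM (104 against 58), and blue exceeds red under 10 CPM.

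Over birds, the share of all counts in testis-enriched genes was 43.1 ± 2.07% at 43 °C and 42.1 ± 2.37% at 27 °C (SD, n = 7 each). An exact two-sided permutation test gave p = 0.438. In telencephalon-enriched genes the shares were 4.03 ± 0.482% and 3.88 ± 0.324% at 43 and 27 °C (SD, n = 7 each, exact permutation p = 0.5262). The 10 most counted genes of a bird held 7.59 ± 0.455% of its counts at 43 °C and 7.30 ± 0.662% at 27 °C (SD, n = 7 each, exact permutation p = 0.347). These were 3 of 9 bird-level values tested, whose Benjamini-Hochberg adjusted p were all between 0.677 and 0.887 in the same exact tests.

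Placed between the extremes, 35 °C was most often intermediate in the genes that leaned to either side. Among the 873 genes at an unadjusted p under 0.05, the mean log2 level at 35 °C lay between the other means in 658 (75.4%), beyond the 43 °C mean in 58 (6.64%) and beyond the 27 °C mean in the other 18.0%. Over all genes tested these shares were 32.5, 29.8 and 37.7%. A middle position is likely for genes chosen by a difference between the other temperatures, so this share is a description. The contrast of 35 °C with the midpoint of 27 and 43 °C does not use that difference. It called 0 genes in edgeR (smallest adjusted p = 0.790; 0 also in DESeq2 and limma voom), with 884 at an unadjusted p under 0.05 (6.25%), 424 higher and 460 lower at 35 °C. In 72 of the 873 genes the midpoint contrast also had an unadjusted p under 0.05, where 6.25% of all genes tested did. Both contrasts use the same estimate of spread for a gene, so this overlap too is a description. ENSTGUG00000014693 had the lowest p for the midpoint among the 10 genes plotted. Its log2 level at 35 °C minus the midpoint was -0.35 ± 0.12 (SE; edgeR adjusted p = 0.790).

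**Figure D4:**
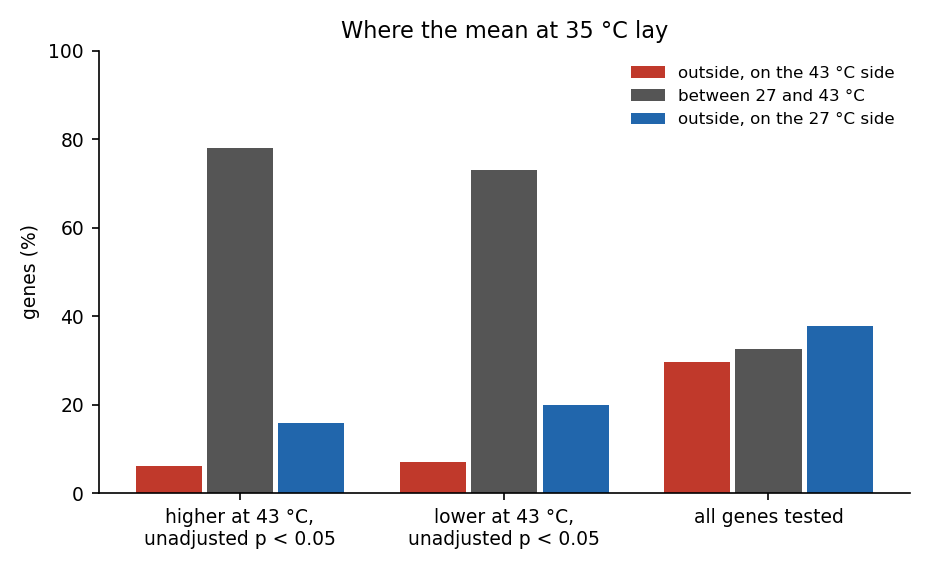
Share of genes (y axis, %) whose mean at 35 °C lay beyond the 43 °C mean (red), between the means (grey) or beyond the 27 °C mean (blue), for the genes higher and lower at 43 °C at an unadjusted p under 0.05 and for all genes tested. The grey bars stand at 78.1 and 73.0% in the selected genes, where selection favours a middle position, and at 32.5% in all genes.

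The birds at 27 °C lay further from their group than those at 43 °C on average, by a difference that did not pass a test. The distance of a bird from the average of its remaining group was taken as the root mean square of log2 differences over genes. It was 0.475 to 0.557 at 43 °C, with a median of 0.533, and 0.472 to 0.618 at 27 °C, with a median of 0.564. The means were 0.520 ± 0.0314 at 43 °C and 0.562 ± 0.0494 at 27 °C (SD, n = 7 each). The exact two-sided permutation test gave p = 0.0845, or 0.677 when adjusted over the 9 tests. Each distance was taken from the bird's own group and not recomputed when labels were permuted, so this p is only approximate. All 7 birds at 43 °C lay below the 27 °C median. Gene by gene, the SD of log2 CPM had a median of 0.311 in the 43 °C birds, against 0.349 in the 27 °C birds (0.310 in those at 35 °C), and it was larger at 27 than at 43 °C in 8542 genes (60.4%). The median SD was 0.340 at 43 °C and 0.394 at 27 °C in testis-enriched genes, and 0.444 at 43 °C and 0.463 at 27 °C in telencephalon-enriched ones. T142 and T155 lay furthest from the other 27 °C birds (0.618 and 0.613). Without both, chosen after their distances were seen, the SD was larger at 27 °C in 53.3% of genes. Dropping the furthest birds from the 27 °C group alone is bound to lower its spread, so this share is a description.

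Along the main axes of variation the groups overlapped. Component 1 of log2 CPM over the 22 testes held 13.9% of the variance, and component 2 held 10.9%. On component 1 the birds at 43 °C lay between -27.2 and 6.25, and those at 27 °C between -48.3 (T142) and 37.1 (T155), so that the 43 °C birds lay inside the range at 27 °C. The difference of means, -5.65, had an exact permutation p of 0.658. On component 2 the scores were 5.64 ± 17.9 at 43 °C and -7.78 ± 24.8 at 27 °C (SD, n = 7 each, exact permutation p = 0.259). T145 and T159 at 27 °C had the lowest scores there, -44.1 and -40.0, and T136 was the lowest at 43 °C with -27.1.

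**Figure D5:**
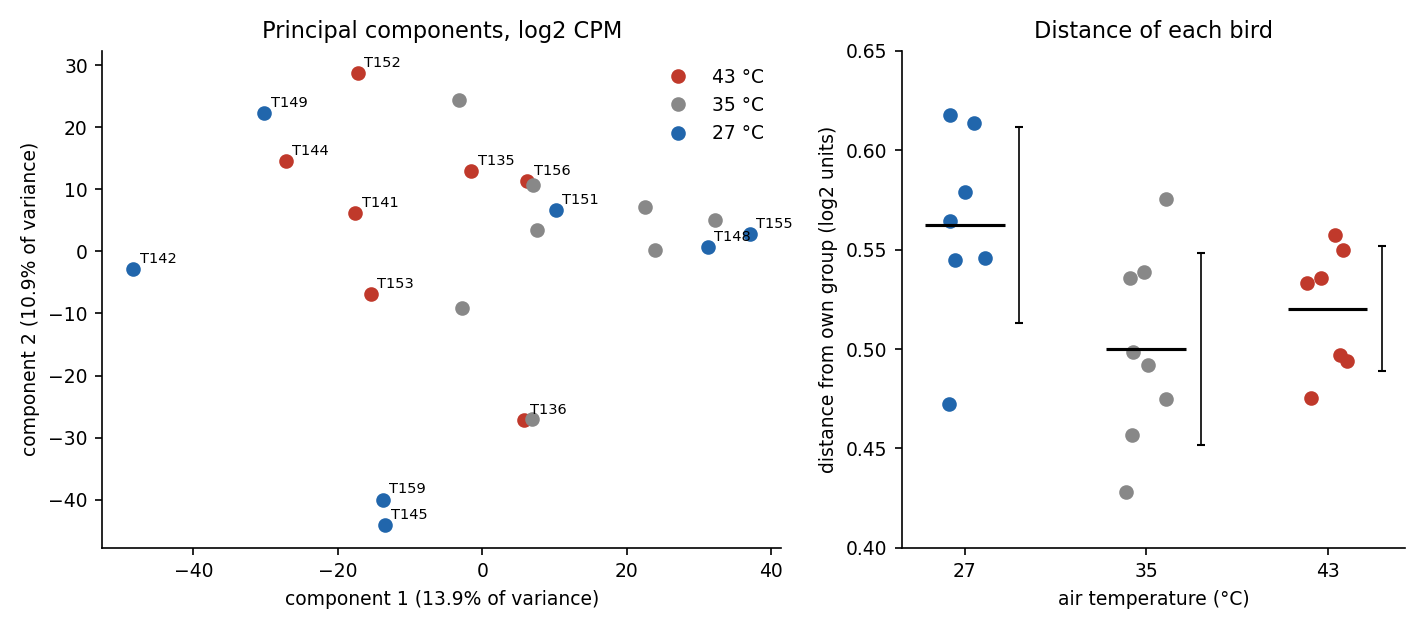
Left, scores of the 22 testes on components 1 and 2 of log2 CPM, with the birds at 43 and 27 °C named. Right, distance of each bird from the average of its remaining group (root mean square of log2 differences, y axis) at 27, 35 and 43 °C, with the group mean and SD. The 27 °C birds span component 1 from -48.3 to 37.1, while the 43 °C birds lie between -27.2 and 6.25.

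Each run was also fitted alone. Of the 873 genes selected on summed counts, 586 also had an unadjusted p under 0.05 in the paired-end run alone, 667 in the single-end run alone, and 470 in both. Only 791 of the 873 were fitted in both runs, so the other 82 could not be counted in both. Since the selection used the sum of these runs, the overlap is a description. Both runs come from the same birds. The paired-end run held 41.0 to 41.5% of the counts in 6 birds at 43 °C and 40.8 to 41.5% at 27 °C, but 61.3% in T156 at 43 °C (exact permutation p = 0.370 between temperatures).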

How the data were processed

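The authors deposited a count table for each tissue, holding unnormalized whole read counts by gene. The testis columns were handled under the unit expected counts, although the values the authors deposited there are all whole, so that rounding changed nothing. Per the submitters' processing notes CASAVA, Trimmomatic 0.36, HISAT2 2.1.0 and featureCounts 1.6.4 were used. Build, annotation, settings, strand of counting, and whether paired-end columns count reads or fragments are not stated in these sources, so reads of overlapping or near-identical genes could have gone to either gene. Per the labels' protocols the mRNA libraries were stranded.

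Runs were summed per bird. Genes passed filterByExpr (minimum count 10, total 15), were TMM-scaled and tested in edgeR 4.0.16 (R 4.3.3, robust quasi-likelihood F test) over all 22 testes, with birds at 35 °C adding to the spread only. Log2 CPM used a prior count of 2. An SE is the absolute fold change over the root of F, with 95% t intervals. DESeq2 1.42.0 and limma 3.58.1 were alternatives. Bird-level values were tested by exact permutation, with distances kept as first computed. The fit was tested on simulated counts.

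Without gene names, the rule named the 2 genes with the smallest p per direction. They came from genes that averaged at least 5 CPM over the birds compared, with the same sign in both runs. Members and lists were chosen with earlier results of these data known. The lists of genes by symbol could not be used. The share tests, lone birds and telencephalon values were added after the data were seen.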

Additional observations from a re-analysis of the deposited data

Results flagged for a closer look

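In 7 of 57 groups of 7 or 8 birds checked, 1 bird stood apart from the others of its temperature by Dixon's test, where chance gives about 1 in 20, or 2.85 groups. Gene levels were checked here in CPM, and in log2 CPM in the count over all genes tested, so these rates are not comparable. The 57 groups include genes chosen for a lone bird, so the number flagged cannot be set against chance. Of the testis counts of T156 at 43 °C, 61.3% lay in the paired-end run, against 41.0 to 41.5% in the other 6 birds. ENSTGUG00000013287 was at 358 CPM in T152 at 43 °C, against 0.0840 to 24.1 CPM in the other 6, and at 228 CPM in T157 at 35 °C, against 0.0945 to 83.5 CPM in the other 7. ENSTGUG00000012606 was at 366 CPM in T144 at 43 °C, against 15.7 to 24.6 CPM. Both genes were singled out for a lone bird, so these flags add nothing to that. ENSTGUG00000002048 was at 5.50 CPM in T135 at 43 °C, against 2.85 to 3.87 CPM. ENSTGUG00000001728 was at 155.5 CPM in T153 at 43 °C, against 196 to 219 CPM. ENSTGUG00000014693 was at 56.0 CPM in T139 at 35 °C, against 24.4 to 39.0 CPM.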

How the results depend on the processing

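No gene was called between 43 and 27 °C, nor for 35 °C against the midpoint where it could be fitted, under any alternative run. These were RLE scaling, no filter or a stricter one, DESeq2, limma voom, the 14 birds alone, each run alone, total counts as a covariate, temperature as a number, dispersions that were not robust, the fit without birds with a deeper paired-end run, and leaving out each of 22 birds. The genes at an unadjusted p under 0.05 numbered 758 of 13727 tested (5.52%, 14 birds alone) to 1098 of 17508 (6.27%, DESeq2 without the filter). With 1 bird left out they numbered 750 of 14245 (5.27%, without T145) to 1203 of 14241 (8.45%, without T142). The 10 genes plotted kept their direction throughout, which their selection from the same counts made likely. For the genes led by a lone bird, DESeq2 gave log2 fold changes of 1.32 (ENSTGUG00000013287) and 0.31 (ENSTGUG00000012606). Its default settings, used here, can replace an outlying count in groups of this size. Without T152 and T144 in turn, edgeR gave 1.47 and 0.32 for these genes. Genes without overlap on the lower side numbered 2 under RLE scaling, 6 in the paired-end and 5 in the single-end run, against 3 in the main setting. With 1 bird left out there were 2 to 14 (without T136) higher and 5 to 21 (without T155) lower, since fewer birds need to be separated. The share of testis-enriched genes at an unadjusted p under 0.05 was 5.74 to 9.37% with 1 bird left out, and that of telencephalon-enriched genes 5.74 to 8.25%, or 7.93% with a 10-fold limit between tissues. With limma voom 78.7% of genes lay within 1.5-fold. The difference in distance (43 minus 27 °C) was -0.042 in the paired-end run (exact permutation p = 0.0402). With 1 bird left out it was -0.067 to -0.024, where leaving out T151 gave -0.067 with an exact permutation p of 0.0111. T151 had the smallest distance at 27 °C (0.472), so leaving it out favours a wider difference. Of the 14 such fits only 1 had an exact permutation p under 0.05, and the largest p was 0.327. None of these p was corrected, all of them kept the distances fixed under permutation, and the cause was not tested. No paired analysis was possible because birds at different temperatures share no number.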
